A study of Mus musculus with 19 samples.

Results

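The liver of the mouse at involution day 6, sampled 6 days from weaning, was compared with the liver at lactation day 10. All 6 involution mice and all 6 lactating mice of a series of 19 were used. The other 7 mice were nulliparous and entered no main test. They entered only an alternative fit of all 19 mice, and their levels are otherwise given beside some values for orientation. Of 51826 gene entries, 11579 averaged 1 TPM or more over these 12 mice and were tested. TPM, the standard unit of RSEM transcript abundance, is the level of a gene per unit of length among all transcripts of a sample. The mice of both groups were female Balb/c animals of 12 weeks by their labels, with no transgene and no treatment, and differed in reproductive stage. The study's methods name flash-frozen caudate lobes in one place and whole liver in another as the source of the RNA. The samples are therefore bulk liver with all its cell types, and each mouse is a separate sample. The methods name more than 1 supplier, and the labels do not give the supplier of each mouse.

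In lactation the liver supplies glucose, amino acids and lipids for milk, and its mass and synthetic activity are raised. After weaning this demand ends and the rodent liver regresses, a process called weaning-induced liver involution, with hepatocyte death and remodelling of the stroma. Hepatocytes make cholesterol, fatty acids, bile acids, plasma proteins and hepcidin and carry the drug-metabolizing enzymes. Kupffer cells, the resident macrophages, and sinusoidal endothelial cells clear debris and present antigen.

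TPM values keep no read depth, so precision was read only from the spread between mice. The animal numbers of the lactating mice placed 3 under 200 (LAC_36, LAC_102 and LAC_133) and 3 at 200 and above (LAC_200, LAC_213 and LAC_240), while all 6 involution mice carried numbers of 200 and above. No label calls these ranges a batch. Within the lactating mice, 1449 genes differed between the ranges at an adjusted p under 0.05 (limma-trend with Benjamini-Hochberg adjustment, as for every adjusted p here). List counts are therefore also given against the 3 lactating mice numbered 200 and above alone, and every gene described below that passed against all lactating mice but not against these is named as such. Genes at 1 TPM or more numbered 11209 to 11448 at lactation and 11390 to 11797 at involution (exact permutation p = 0.00649, and 0.0476 against the upper range alone). The summed share of the 10 top genes was 29.0% to 31.2% at lactation and 26.7% to 28.8% at involution (exact permutation p = 0.00217, the smallest that 6 against 6 mice can give, and 0.0238 against the upper range alone). A smaller share for these leaves more TPM to all others, and its part in the changes of other genes was not tested. The median log2 change of all genes tested was 0.13, or 0.11 against the upper range alone. Median-ratio scaling, which sets each mouse to the typical gene, moved it to -0.01, so counts under that scaling are also given. Hepatocyte markers were abundant. The 8 hepatocyte markers summed to 104139 to 155702 TPM at lactation and 82304 to 114892 TPM at involution. Most of this sum was Alb, with means of 100197 and 62534 TPM. At an adjusted p under 0.05, 1 of the 8 was higher and 1 lower, against 0 and 1 with the upper range alone. Their median log2 change was 0.06. The 7 mammary gland markers summed to at most 17.0 TPM in any of the 12 mice.

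At involution 173 genes (1.49% of those tested) were higher and 150 (1.3%) were lower, with an adjusted p under 0.05 and a log2 change of at least 1 in size on log2(TPM + 1). This scale understates changes of genes at low TPM. Without the limit on size, 2653 genes (22.9%) were higher and 650 (5.61%) lower. Against the upper range of lactating mice alone, all of the 173 and all of the 150 kept their direction, and 84 and 94 of them were called again. Under median-ratio scaling the counts without the limit on size were 1091 higher (9.42%) and 1317 lower (11.4%) and with it 115 (0.993%) and 187 (1.61%), so the excess of rises over falls rests on the scaling. With the limit on size it also rests on the lactating mice used, since the upper range alone gave 114 higher (0.985%) and 130 lower (1.12%). Against the upper range with that scaling, 677 (5.85%) were higher and 784 (6.77%) lower, or 72 (0.622%) and 166 (1.43%) past the limit on size. Some rises described below did not pass in that setting and are named near the end, where the dependence on processing is given. Among the 323 called genes, 126 also differed between the ranges of animal number within the lactating mice. The values of the groups did not overlap for 1251 genes higher at involution (10.8%) and 299 lower (2.58%).

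The liver functions differed in direction and size when 24 lists of genes were followed. Cholesterol synthesis had the lowest median log2 change (-1.46) and the highest share of members lower at involution (all 25). Antigen presentation and interferon response had the highest median (0.58), followed by acute phase proteins (0.50) and coagulation and complement (0.38). Against the upper range alone this order changed. Acute phase proteins were then first (0.43), before antigen presentation (0.39), extracellular matrix and stellate cells (0.36) and coagulation and complement (0.30). Respiratory chain genes lay close to no change, with 71 of 76 members not passing the test. These medians are descriptions of the lists and were not tested. All counts of list members that follow stand against the shares of all genes tested that passed, which were 22.9% higher and 5.61% lower against all lactating mice, 12% and 3.76% against the upper range, and 9.42% and 11.4% under median-ratio scaling.

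**Figure D1:**
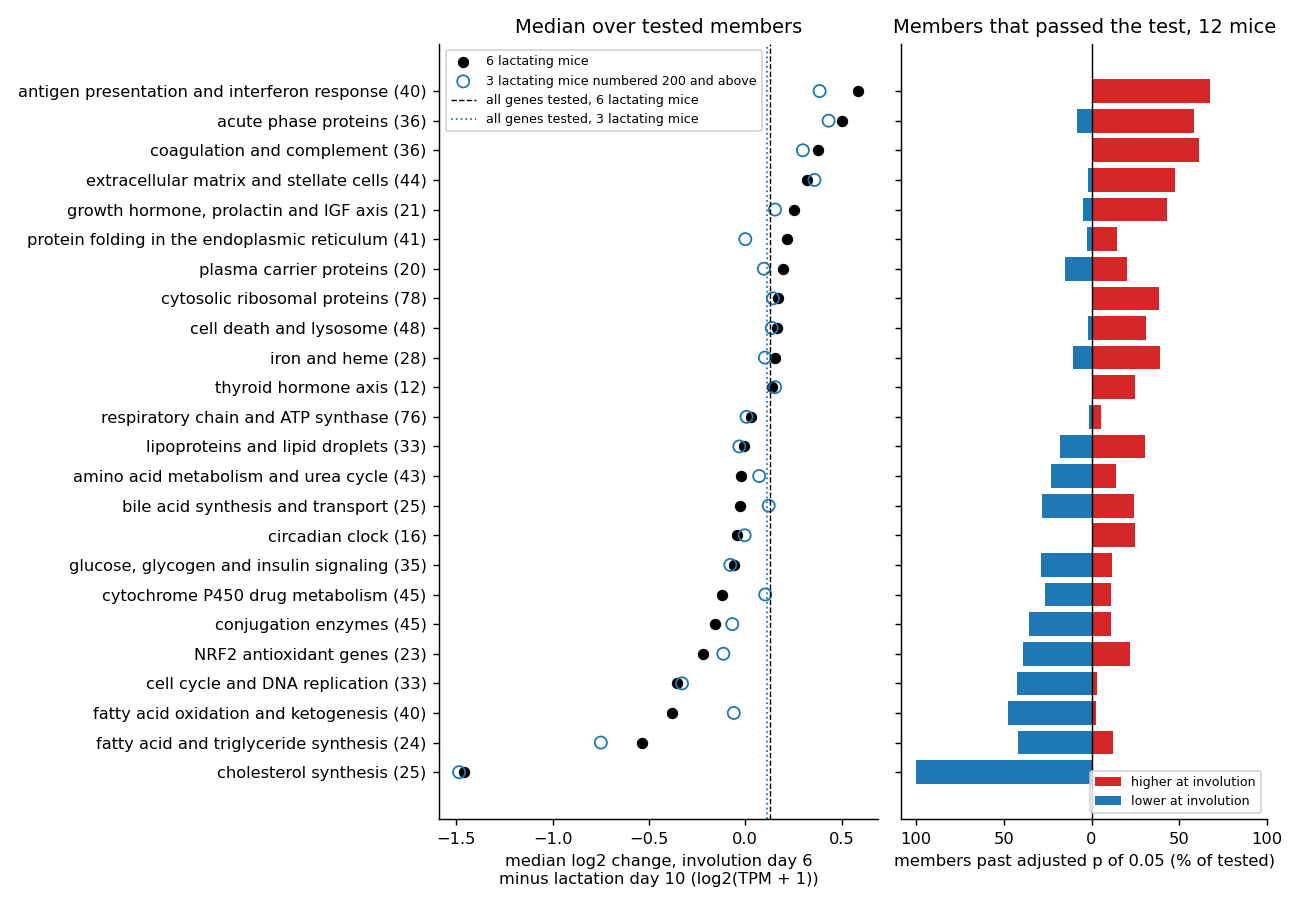
Left, median log2 change (involution day 6 minus lactation day 10, on log2(TPM + 1)) of the tested members of 24 function lists, against all 6 lactating mice (filled) and against the 3 numbered 200 and above (open), with vertical lines at the medians of all genes tested. Right, share of tested members higher (red) or lower (blue) at an adjusted p under 0.05 in the 12 mice, with the number tested in parentheses at left. Cholesterol synthesis stands apart, at -1.46 with all lactating mice and -1.49 with those numbered 200 and above, while fatty acid oxidation moves from -0.38 to -0.06.

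Cholesterol synthesis was lower throughout. The hepatocyte makes sterols from acetyl-CoA by way of mevalonate, squalene and lanosterol, and the transcription factor SREBP2, encoded by Srebf2, drives these genes when sterols are scarce. All 25 members fell (background 5.61%), 22 of them with no overlap between groups, and 23 of 25 fell against the upper range of lactating mice alone. Under median-ratio scaling all 25 fell. Sqle (chr15:59315077-59331192), squalene epoxidase, measured 46.0, 62.2 and 77.5 TPM at lactation (lowest, median and highest, as in the triplets that follow unless they are of a range, which list its 3 lactating mice in order of animal number) and 2.58, 3.42 and 5.91 TPM at involution. Its involution mean was 15.5-fold lower (log2 change -3.69 ± 0.179 (SE), adjusted p = 5.99e-08). The ranges of lactating mice overlapped, and the highest involution mouse was far under the lowest lactating mouse. Against the upper range alone the log2 change of Sqle was -3.70 ± 0.218 (adjusted p = 1.64e-05). The nulliparous mean was 20.3 TPM, which lies between the groups.

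Idi1 (chr13:8885501-8892451), the isomerase of the isoprenoid units, measured 75.1, 103 and 123 TPM at lactation and 9.05, 12.2 and 20.1 TPM at involution (log2 change -2.95 ± 0.168 (SE), adjusted p = 3.12e-07). Msmo1 (chr8:64718139-64733792), which removes methyl groups from the sterol ring, measured 72.0, 84.0 and 117 and 8.60, 10.9 and 14.5 TPM (log2 change -2.90 ± 0.139 (SE), adjusted p = 5.99e-08). Cyp51, lanosterol demethylase, measured 58.5, 76.5 and 83.4 and 10.3, 12.6 and 16.7 TPM (log2 change -2.41 ± 0.117 (SE), adjusted p = 5.99e-08). For all 3 the groups were well separated. Earlier in the path, Hmgcs1, which makes HMG-CoA, measured 149, 236 and 261 and 41.9, 49.2 and 56.2 TPM (log2 change -2.10 ± 0.140 (SE), adjusted p = 1.53e-06), again without overlap. The log2 changes against the upper range alone were -2.93 for Idi1, -2.77 for Msmo1, -2.42 for Cyp51 and -2.07 for Hmgcs1. Srebf2 itself changed by -0.52 ± 0.111 (adjusted p = 0.00402).

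To set these falls beside sequence, the 250 bases before the RefSeq start of each gene (GRCm38.p6) were searched on both strands for short motifs. The NF-Y box CCAAT, bound by the factor that works beside SREBP2, was found for 16 of the 17 cholesterol synthesis genes with a promoter entry. Counted over promoters, 16 of 20 (80%) held it, against 33.8% of all 32851 mouse promoters. The box was also in 15 of 32 promoters of fatty acid oxidation (46.9%) and in 7 of 35 acute phase promoters (20%). The sterol regulatory element TCACNCCAC was found in 1.05% of all promoters and, in this list, in that of Hmgcs1 alone, which is 1 of 20 (5%). It was also in 2 of 35 acute phase promoters (5.71%), that of Saa3 among them, and in 1 of 32 of fatty acid oxidation (3.12%). Msmo1 and Idi1 are shown as the members with the largest falls that have an entry, and Hmgcs1, chosen after the matches were seen, as the promoter with both motifs. Capitals mark the NF-Y boxes (CCAAT, or ATTGG where the box is on the other strand) and, in Hmgcs1, the sterol regulatory element. The windows are chr8:64733579-64733828 (minus strand), chr13:8885356-8885605 (plus strand) and chr13:119690101-119690350 (plus strand), each printed 5′ to 3′ along the gene. Some of these bases lie within the GENCODE model of the gene, whose start can differ from that of RefSeq.
Msmo1: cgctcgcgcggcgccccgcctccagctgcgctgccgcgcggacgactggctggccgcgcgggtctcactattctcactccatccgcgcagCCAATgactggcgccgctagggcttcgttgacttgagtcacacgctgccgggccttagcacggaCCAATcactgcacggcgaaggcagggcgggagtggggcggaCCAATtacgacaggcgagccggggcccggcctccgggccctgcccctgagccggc
Idi1: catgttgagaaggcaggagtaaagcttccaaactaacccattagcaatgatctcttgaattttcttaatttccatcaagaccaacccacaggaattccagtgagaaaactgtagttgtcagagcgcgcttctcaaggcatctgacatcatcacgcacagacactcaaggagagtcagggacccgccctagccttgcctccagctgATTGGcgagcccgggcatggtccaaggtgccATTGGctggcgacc
Hmgcs1: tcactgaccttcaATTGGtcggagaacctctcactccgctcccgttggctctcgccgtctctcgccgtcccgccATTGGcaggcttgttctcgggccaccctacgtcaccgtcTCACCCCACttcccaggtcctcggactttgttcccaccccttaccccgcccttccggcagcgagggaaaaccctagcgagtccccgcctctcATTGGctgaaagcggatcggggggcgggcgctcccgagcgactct

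Msmo1 had 3 boxes, whose first letters lie 160, 96 and 55 bases before the start, all on the strand of the gene. Idi1 had boxes 45 and 14 bases before it on the opposite strand. A match is a description of the sequence, and binding was not measured.

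Fatty acid and triglyceride synthesis was divided. Of 24 members, 10 fell and 3 rose, and against the upper range alone 13 fell and 3 rose. Thrsp, a lipogenic factor induced by carbohydrate and thyroid hormone, measured 318, 418 and 682 TPM at lactation and 42.9, 88.1 and 157 TPM at involution (log2 change -2.34 ± 0.253 (SE), adjusted p = 3.62e-05). The synthase Fasn measured 126, 248 and 322 and 47.2, 60.1 and 136 TPM (log2 change -1.81 ± 0.261 (SE), adjusted p = 2.72e-04). Thrsp did not overlap between groups. For Fasn, only the highest involution mouse lay above the lowest lactating mouse. Gpam, which starts glycerolipid synthesis, fell by a log2 change of -1.27 ± 0.228 (adjusted p = 0.00128). Acaca, the carboxylase of malonyl-CoA synthesis, changed by -0.44 ± 0.277 (adjusted p = 0.245) and the desaturase Scd1 by -0.81 ± 0.316 (adjusted p = 0.0708), and neither passed the test. Of the genes that rose, Srebf1, which encodes the transcription factor SREBP1, measured 95.0, 147 and 214 TPM at lactation and 227.4, 258 and 335 TPM at involution (log2 change 0.91 ± 0.177 (SE), adjusted p = 0.00215), with every involution mouse above every lactating mouse. Agpat2 and Dgat2, acyltransferases of triglyceride assembly, rose by 0.38 ± 0.0717 (adjusted p = 0.00181) and 0.36 ± 0.0697 (adjusted p = 0.00224). Under median-ratio scaling the counts of this list were 12 lower and 2 higher, and Agpat2 did not pass (adjusted p = 0.0641).

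Fatty acid oxidation genes were also lower, but by an amount that depended on the lactating mice used. Of 40 tested members, 19 fell and 1 rose. Against the upper range alone (background 3.76% lower and 12% higher), 9 fell and 2 rose. Under median-ratio scaling 25 fell and 1 rose. The largest falls of all genes named here were those of the microsomal omega-hydroxylases, which are textbook targets of the fatty acid receptor PPARα. Cyp4a14 (chr4:115486200-115496142) measured 1274, 1370 and 1569 TPM in the lactating mice LAC_36, LAC_102 and LAC_133 and 47.5, 84.1 and 159 TPM in those named LAC_200, LAC_213 and LAC_240. The 6 involution mice measured 3.69, 7.66 and 27.7 TPM. Cyp4a14 was thus high in the lower range, intermediate in the upper range and low at involution, with no overlap. The log2 change was -5.19 ± 0.866 (adjusted p = 7.58e-04) against all lactating mice and -3.19 ± 0.533 (adjusted p = 0.00279) against the upper range. Within lactation the upper range was lower than the lower range by a log2 change of -4.01 (adjusted p = 3.98e-04). The nulliparous mean was 377 TPM.

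Cyp4a10 (chr4:115518264-115533649) had the same order, with 1527, 1559 and 1610 TPM in the lower range, 217, 275 and 246 TPM in the upper range and 9.92, 15.2 and 50.2 TPM at involution. Its log2 change was -5.04 ± 0.592 (adjusted p = 6.46e-05), or -3.71 ± 0.398 (adjusted p = 2.79e-04) against the upper range. Cyp4a31 changed by -2.46 ± 0.238 (adjusted p = 1.85e-05), or -2.08 ± 0.256 (adjusted p = 5.50e-04). These near-identical paralogs share reads, which RSEM divides between them, so the split among the Cyp4a genes is uncertain. Acot1, a cytosolic acyl-CoA thioesterase, measured 163, 198 and 176 TPM in the lower range, 12.8, 17.8 and 12.6 TPM in the upper range and 2.0, 4.40 and 5.62 TPM at involution (log2 change -3.42 ± 0.707 (SE), adjusted p = 0.00324). With the upper range alone its change was -1.64 ± 0.225 (adjusted p = 9.20e-04). The promoter of Acot1 (chr12:84009252-84009501, plus strand) is shown because this gene has the largest fall in the list with an entry. It held an NF-Y box 79 bases before the start, in capitals, a motif found in 46.9% of the promoters of this list. The direct repeat bound by PPARα was found in none of the 32 promoters of the list and in 0.0335% of all promoters. Cyp4a14 and Cyp4a10 have no promoter entry and were not searched.
Acot1: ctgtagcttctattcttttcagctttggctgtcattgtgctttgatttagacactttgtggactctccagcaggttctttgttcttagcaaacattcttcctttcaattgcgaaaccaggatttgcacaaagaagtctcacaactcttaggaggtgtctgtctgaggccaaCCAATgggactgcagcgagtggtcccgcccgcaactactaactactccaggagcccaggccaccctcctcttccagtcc

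Genes of mitochondrial entry and ketone metabolism named here were not among those that passed as lower. Bdh1, which interconverts the ketone bodies, rose from 109, 129 and 149 TPM to 168, 200.8 and 245 TPM (log2 change 0.70 ± 0.0989 (SE), adjusted p = 2.35e-04), without overlap. Cpt1a, the carnitine palmitoyltransferase of mitochondrial entry, changed by 0.27 ± 0.149 (adjusted p = 0.187). The receptor gene Ppara changed by 0.08 ± 0.204 (adjusted p = 0.797) and the coactivator gene Ppargc1a by -0.33 ± 0.180 (adjusted p = 0.180). None of these 3 passed the test.

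**Figure D2:**
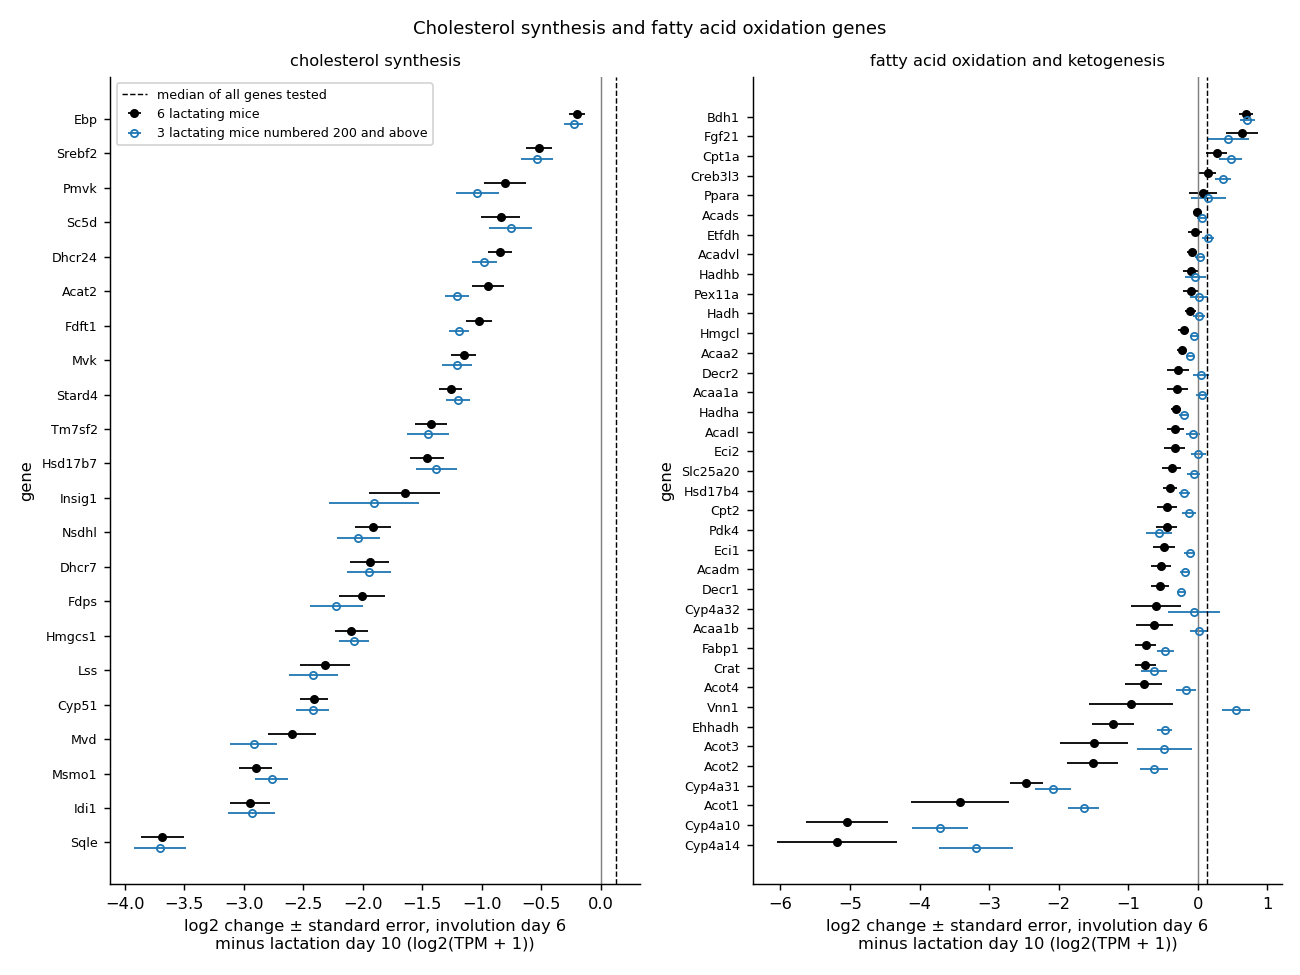
Log2 change (involution day 6 minus lactation day 10, on log2(TPM + 1)) with its standard error for the tested genes reported here of the cholesterol synthesis list (left) and the fatty acid oxidation and ketogenesis list (right), against all 6 lactating mice (filled) and the 3 numbered 200 and above (open). The dashed line is the median of all genes tested, 0.13. Sqle is at -3.69 and -3.70 with the 2 sets, whereas Cyp4a14 moves from -5.19 to -3.19 and Acot1 from -3.42 to -1.64.

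Of 33 lipoprotein and lipid droplet genes, 10 rose and 6 fell, against 9 and 4 with the upper range alone and 5 and 8 under median-ratio scaling. The members named here that rose include genes of sterol export. Abcg5 and Abcg8, whose products together export cholesterol into bile, measured 41.8, 44.3 and 46.0 and 27.5, 30.2 and 34.1 TPM at lactation and 68.2, 86.1 and 107 and 52.4, 60.5 and 73.9 TPM at involution. Their log2 changes were 0.94 ± 0.0924 (adjusted p = 2.02e-05) and 0.99 ± 0.101 (adjusted p = 2.54e-05), and neither gene overlapped between groups. Apoe, an apolipoprotein of remnant clearance, rose from 27813, 32037 and 37220 TPM to 46967, 55464 and 61492 TPM (log2 change 0.79 ± 0.113 (SE), adjusted p = 2.54e-04), also without overlap. Genes of triglyceride-rich lipoproteins included falls. Mttp, which loads lipid onto nascent particles, changed by -0.37 ± 0.0680 (adjusted p = 0.00160). Apoc2, the cofactor of lipoprotein lipase, changed by -0.49 ± 0.110 (adjusted p = 0.00557) but did not pass against the upper range alone (adjusted p = 0.0729). Apob, the structural protein of these particles, changed by -0.02 ± 0.0791 (adjusted p = 0.875) and the droplet coat gene Plin2 by 0.16 ± 0.105 (adjusted p = 0.264). Lpl, lipoprotein lipase, measured 14.5, 20.6 and 17.7 TPM in the lower range, 38.6, 37.3 and 72.7 TPM in the upper range and 21.02, 23.7 and 30.1 TPM at involution. Its change was -0.21 ± 0.310 (adjusted p = 0.633) against all lactating mice, -0.91 ± 0.200 (adjusted p = 0.0114) against the upper range and 0.48 ± 0.137 (adjusted p = 0.0182) against the lower range.

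Bile acid genes had no common direction. Of 25 tested, 6 rose and 7 fell, and against the upper range alone 5 rose and 1 fell. Under median-ratio scaling 2 rose and 6 fell. Cyp8b1, which directs synthesis towards cholic acid, measured 318, 344 and 416 TPM at lactation and 132, 168 and 243 TPM at involution (log2 change -1.01 ± 0.125 (SE), adjusted p = 8.66e-05), without overlap, and changed by -0.96 ± 0.158 (adjusted p = 0.00260) against the upper range. Cyp7a1, the rate-limiting step of bile acid production, was at 8.95 to 13.1 TPM in 4 involution mice and at 57.2 and 72.9 TPM in the other two, against 27.4, 64.7 and 116 TPM at lactation. Its change was -1.56 ± 0.512 (adjusted p = 0.0370) and did not pass against the upper range alone (-1.02 ± 0.635 (adjusted p = 0.317)). The call also ended without any 1 of lactating mice LAC_36, LAC_102 and LAC_133 or involution mice ID6_201, ID6_209, ID6_216 and ID6_218 (adjusted p up to 0.084). Hsd3b7, an enzyme of sterol ring modification, rose by 0.46 ± 0.0931 (adjusted p = 0.00268), and Baat, which conjugates bile acids, by 0.31 ± 0.0582 (adjusted p = 0.00184). Slc51b, a subunit of the basolateral exporter, rose from 1.81, 2.11 and 2.79 TPM to 3.41, 4.08 and 5.32 TPM (log2 change 0.72 ± 0.106 (SE), adjusted p = 3.18e-04), without overlap. Baat did not pass under median-ratio scaling (adjusted p = 0.215). Abcc4, a basolateral efflux pump, and Acox2, of side chain shortening, changed by -0.78 ± 0.202 (adjusted p = 0.0116) and -0.50 ± 0.119 (adjusted p = 0.00721) but did not pass against the upper range alone (adjusted p = 0.147 and 0.0781). The bile salt export pump gene Abcb11 changed by 0.07 ± 0.0657 (adjusted p = 0.435), and the bile acid receptor gene Nr1h4 by -0.19 ± 0.134 (adjusted p = 0.312).

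Acute phase genes rose. Acute phase proteins are secreted mainly by hepatocytes in response to interleukin-6 and interleukin-1, by way of STAT3, C/EBP and NF-kB. The list also holds genes of that signalling, such as Stat3, Socs3, Cebpb and Il6ra, and the metallothionein genes Mt1 and Mt2. In bulk liver the cell that made each transcript was not measured. Of 36 tested members, 21 rose and 3 fell, and against the upper range alone 19 rose and 1 fell. Under median-ratio scaling 13 rose and 4 fell. The largest rises of all genes named here were those of serum amyloid A, apolipoproteins of inflammation encoded in 1 cluster on chromosome 7. Saa3 (chr7:46711998-46715700) measured 0.870, 2.04 and 1.36 TPM in the lower range of lactating mice, 9.85, 9.19 and 4.74 TPM in the upper range and 54.8, 90.3 and 132 TPM at involution (log2 change 4.28 ± 0.426 (SE), adjusted p = 2.25e-05). Saa1 (chr7:46740497-46742980) measured 9.13, 12.7 and 17.2 TPM at lactation and 100.4, 152 and 253 TPM at involution (log2 change 3.54 ± 0.203 (SE), adjusted p = 3.12e-07). Saa2 (chr7:46751790-46754313) measured 5.48, 8.66 and 13.5 and 88.3, 95.9 and 203 TPM (log2 change 3.61 ± 0.240 (SE), adjusted p = 1.53e-06). Every involution mouse was above every lactating mouse for each of the 3. Mean levels were 19.5-fold higher for Saa3, 12.6-fold for Saa1 and 13.6-fold for Saa2. The log2 changes against the upper range alone were 3.35 ± 0.296 (adjusted p = 1.09e-04), 3.24 ± 0.224 (adjusted p = 3.23e-05) and 3.24 ± 0.251 (adjusted p = 5.62e-05). Nulliparous means were 18.4, 122 and 73.5 TPM, so that for Saa1 and Saa2 the low values were those of the lactating mice. Saa1 and Saa2 are near-identical and the division of reads between them is uncertain.

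The promoters of these genes are shown because they carried the largest rises. Their windows are chr7:46742981-46743230 (minus strand), chr7:46751583-46751832 (plus strand) and chr7:46715677-46715926 (minus strand). Capitals mark the C/EBP motif TTGCNNAA, or its reverse complement where it lies on the other strand, and the sterol element match in Saa3 is left in lower case.
Saa1: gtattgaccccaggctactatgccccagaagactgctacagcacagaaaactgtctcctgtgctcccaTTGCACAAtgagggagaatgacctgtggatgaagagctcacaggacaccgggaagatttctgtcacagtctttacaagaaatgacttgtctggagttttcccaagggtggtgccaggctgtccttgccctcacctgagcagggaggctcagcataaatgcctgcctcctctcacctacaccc
Saa2: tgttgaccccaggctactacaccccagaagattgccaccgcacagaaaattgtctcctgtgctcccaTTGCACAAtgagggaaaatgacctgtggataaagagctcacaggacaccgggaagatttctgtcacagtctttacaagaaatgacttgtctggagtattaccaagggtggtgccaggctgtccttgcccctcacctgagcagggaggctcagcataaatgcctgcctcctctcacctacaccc
Saa3: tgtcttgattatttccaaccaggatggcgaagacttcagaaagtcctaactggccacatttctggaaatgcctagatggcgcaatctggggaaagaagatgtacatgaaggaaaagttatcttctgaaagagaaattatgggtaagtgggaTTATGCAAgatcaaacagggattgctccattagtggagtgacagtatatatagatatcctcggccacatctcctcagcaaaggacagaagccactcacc

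The motif lay 182 bases before the start in Saa1, 183 in Saa2 and 99 in Saa3. The windows of Saa1 and Saa2 were identical at 95.2% of 250 bases, and those of Saa1 and Saa3 at 61.6%. In all, 14 of 35 acute phase promoters (40%) held the motif against 9.56% of all promoters, and 6 (17.1%) held the STAT motif TTCNNNGAA against 7.02%. The NF-kB motif searched was in none of them and in 0.14% of all promoters.

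Other acute phase genes changed less. Hp, haptoglobin, which binds free hemoglobin, measured 1013, 1391 and 1736 TPM at lactation and 1911, 3500 and 5528 TPM at involution (log2 change 1.33 ± 0.220 (SE), adjusted p = 6.93e-04), without overlap. Lcn2, a siderophore-binding protein, measured 14.0, 17.7 and 17.8 TPM in the lower range of lactating mice, 3.37, 3.09 and 3.67 TPM in the upper range and 10.7, 18.1 and 38.2 TPM at involution. It did not pass against all 6 lactating mice (log2 change 1.12 ± 0.454 (SE), adjusted p = 0.0786) but did against the upper range (2.12 ± 0.324 (adjusted p = 0.00169)). Orm1, an orosomucoid, changed by -0.03 ± 0.130 (adjusted p = 0.901). The 3 members that fell were Crp, a pentraxin, and the metallothioneins Mt1 and Mt2, which bind zinc and copper and are induced by metals and glucocorticoids. Mt1 measured 744, 2211 and 4021 TPM at lactation and 242, 344 and 705 TPM at involution (log2 change -2.33 ± 0.403 (SE), adjusted p = 9.76e-04). Mt2 changed by -2.52 ± 0.546 (adjusted p = 0.00434) and Crp by -0.54 ± 0.125 (adjusted p = 0.00634), but neither passed against the upper range alone (adjusted p = 0.0725 and 0.0659).

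Coagulation and complement genes that passed were all higher. Of 36 tested, 22 rose (61.1%, background 22.9%) and 0 fell, and 15 were higher without overlap (background 10.8%). Against the upper range alone 18 rose, and under median-ratio scaling 12 rose and 1 fell. C2, the protease subunit of the classical convertase, measured 36.5, 38.5 and 40.9 TPM at lactation and 61.3, 67.0 and 77.8 TPM at involution (log2 change 0.80 ± 0.0677 (SE), adjusted p = 1.04e-05). Pros1, the anticoagulant protein S, measured 13.7, 15.9 and 16.8 and 24.9, 26.4 and 29.3 TPM (log2 change 0.74 ± 0.0649 (SE), adjusted p = 1.37e-05). Both were higher in 6 of 6 involution mice than in any lactating mouse. Plg, plasminogen, rose by 0.46 ± 0.0718 (adjusted p = 4.56e-04). C3 rose by 0.39 ± 0.113 (adjusted p = 0.0202) and did not pass against the upper range (0.22 ± 0.114 (adjusted p = 0.236)). Plasma carriers were mixed, with 4 of 20 higher and 3 lower, against 5 and 4 with the upper range alone and 1 and 4 under median-ratio scaling. Alb, albumin, fell from 81145, 98898 and 127179 TPM to 55316, 58829 and 82593 TPM (log2 change -0.68 ± 0.143 (SE), adjusted p = 0.00361), and its share of all TPM was 8.12% to 12.7% at lactation and 5.53% to 8.26% at involution. The antitrypsin paralogs Serpina1e and Serpina1d changed by -1.46 ± 0.180 (adjusted p = 9.33e-05) and -1.24 ± 0.231 (adjusted p = 0.00163), and their split is uncertain. Ambp, the precursor of bikunin, rose by 0.57 ± 0.0865 (adjusted p = 3.81e-04). Trf, transferrin, changed by 0.50 ± 0.223 (adjusted p = 0.108) and Rbp4, the retinol carrier, by 0.03 ± 0.106 (adjusted p = 0.866). Ttr, a thyroxine carrier, measured 3436, 3061 and 3451 TPM in the lower range, 7338, 7466 and 7868 TPM in the upper range and 7567, 8260 and 8592 TPM at involution, and its change of 0.72 ± 0.239 (adjusted p = 0.0388) was 0.12 ± 0.0839 (adjusted p = 0.356) against the upper range. That call ended without any 1 of lactating mice LAC_36, LAC_102 and LAC_133 or of the 6 involution mice (adjusted p up to 0.0866).

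Antigen presentation and interferon response genes rose in 27 of 40 cases, and 0 fell. Against the upper range alone 18 rose, and under median-ratio scaling 20 rose. The largest changes were in the class II pathway, by which macrophages, dendritic cells and B cells present antigen. H2-Aa, a class II chain, measured 3.45, 6.52 and 9.90 TPM at lactation and 21.2, 29.6 and 47.7 TPM at involution (log2 change 2.07 ± 0.223 (SE), adjusted p = 3.62e-05). Cd74, the invariant chain, measured 20.1, 33.9 and 45.2 and 92.3, 124 and 172 TPM (log2 change 1.95 ± 0.202 (SE), adjusted p = 2.62e-05). Both were higher in every involution mouse, and against the upper range alone they changed by 1.98 ± 0.228 (adjusted p = 4.04e-04) and 1.75 ± 0.174 (adjusted p = 1.87e-04). Psmb10, an immunoproteasome subunit, rose from 34.1, 41.3 and 45.5 TPM to 62.8, 77.5 and 83.2 TPM (log2 change 0.87 ± 0.0830 (SE), adjusted p = 1.72e-05), without overlap. H2-K1, a class I heavy chain, rose by 0.61 ± 0.121 (adjusted p = 0.00249), or 0.35 ± 0.0846 (adjusted p = 0.0190) against the upper range. B2m, its light chain, changed by 0.13 ± 0.0989 (adjusted p = 0.340). Isg15, a ubiquitin-like modifier of the interferon response, did not pass. It changed by 0.46 ± 0.246 (adjusted p = 0.177) and by -0.07 ± 0.178 (adjusted p = 0.840) against the upper range.

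**Figure D3:**
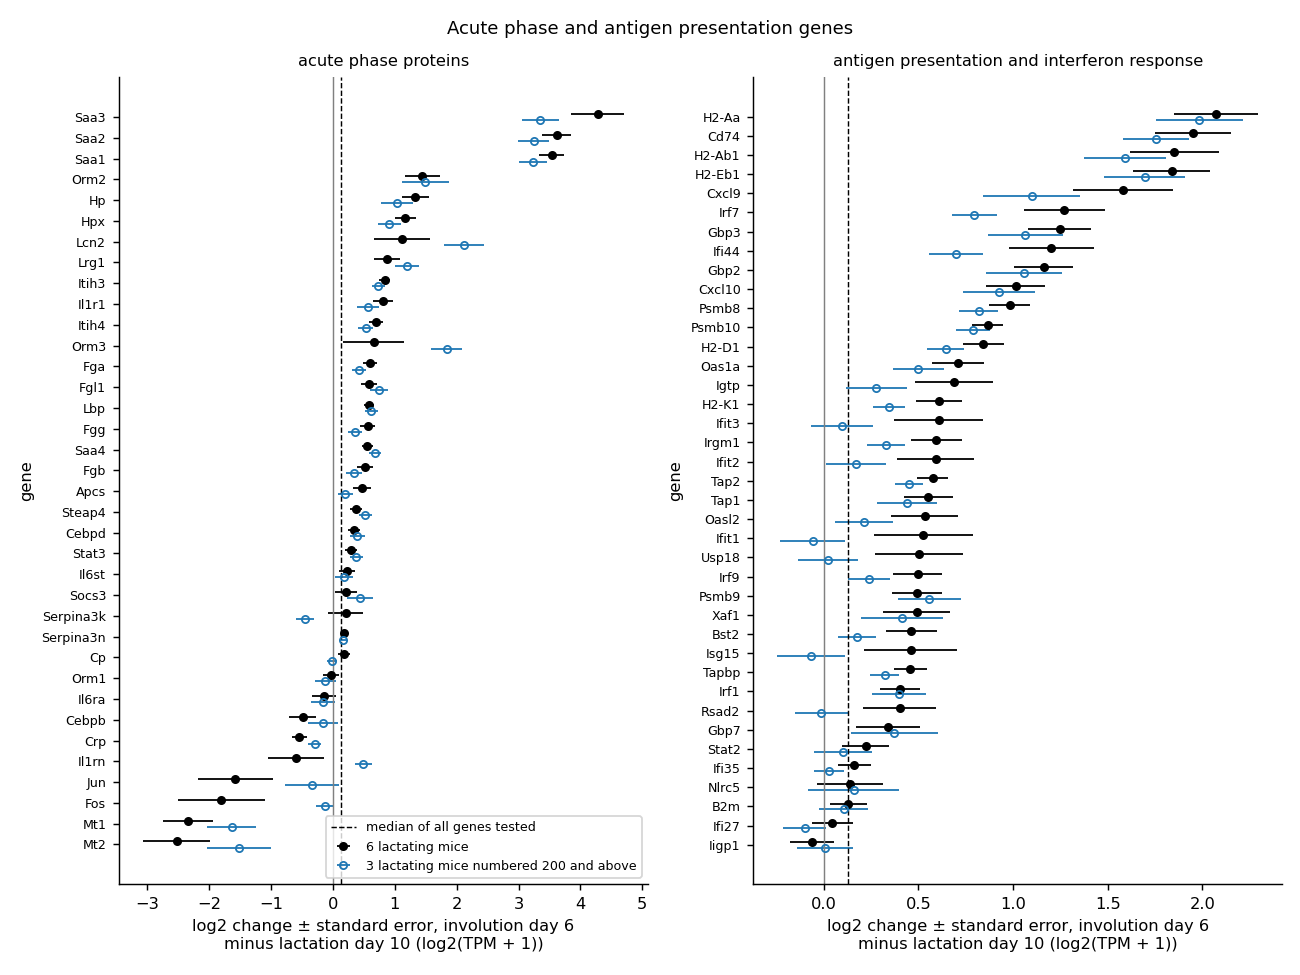
Log2 change (involution day 6 minus lactation day 10, on log2(TPM + 1)) with its standard error for the tested genes reported here of the acute phase list (left) and the antigen presentation and interferon response list (right), against all 6 lactating mice (filled) and the 3 numbered 200 and above (open). The dashed line is the median of all genes tested, 0.13. The 3 serum amyloid A genes lie at 3.54 to 4.28, and H2-Aa and Cd74 lead the antigen presentation genes at 2.07 and 1.95.

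Markers of Kupffer cells rose with these genes. Of 15 markers of Kupffer cells and macrophages, 12 reached the filter. All 12 rose, 11 without overlap, and all 12 rose against the upper range alone and under median-ratio scaling. Below the filter, Ccr2 averaged 0.35 TPM at lactation and 0.94 TPM at involution. Cx3cr1 averaged 0.755 and 0.575 TPM, and Itgam 0.0167 and 0.00333 TPM, so these were not higher. The summed level of the list was 236 to 435 TPM at lactation and 733 to 964 TPM at involution, against 352 to 636 TPM in nulliparous mice. Among the defining markers, Clec4f was at 80.3 ± 23.7 TPM (SD, n = 6) at lactation and 184 ± 21.3 TPM at involution, Vsig4 at 16.9 ± 3.71 and 47.7 ± 6.08 TPM, and Cd5l at 37.7 ± 12.2 and 133.4 ± 22.8 TPM. Of 13 sinusoidal endothelial markers 10 rose, also against the upper range alone, but 7 rose under median-ratio scaling. The sum of the list was 118 to 200.96 TPM at lactation and 273 to 297 TPM at involution. Clec4g (means of 67.37 and 118.6 TPM) and Fcgr2b (28.91 and 48.65 TPM) were its most abundant members. Lyve1 averaged 3.045 TPM at lactation and 2.637 TPM at involution, and Stab1 11.51 and 12.63 TPM. Stab2 reached 13.96 TPM at lactation and was as low as 9.46 TPM at involution, so its groups overlapped. Only 3 of 9 neutrophil markers reached the filter, and all 3 rose, with a summed level of 4.49 to 10.6 TPM at lactation and 14.3 to 23.5 TPM at involution, while Ly6g stayed at or below 0.25 TPM in every mouse. Of the 3, Retnlg averaged 0.21 TPM at lactation and 1.83 TPM at involution. It reached the filter only through the involution mice, so the filter itself favoured its rise. Of the lymphocyte list, 3 of 15 were tested and 2 rose, with sums of 16.1 to 26.8 and 28.4 to 38.3 TPM. The same limit holds for Gzma of this list, which averaged 0.397 TPM at lactation and 2.17 TPM at involution. Cholangiocyte markers were tested in 3 of 8 cases and 1 rose, with sums of 25.1 to 36.2 and 34.3 to 49.2 TPM. In bulk liver, more cells of a type and more RNA per cell cannot be told apart, and the part of these cells in the rises of immune genes was not tested. Adipocyte, pancreas and skeletal muscle markers passed the filter in 4 of 8, 2 of 10 and 3 of 6 cases, of which 1 adipocyte marker fell and no other marker passed the test.

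**Figure D4:**
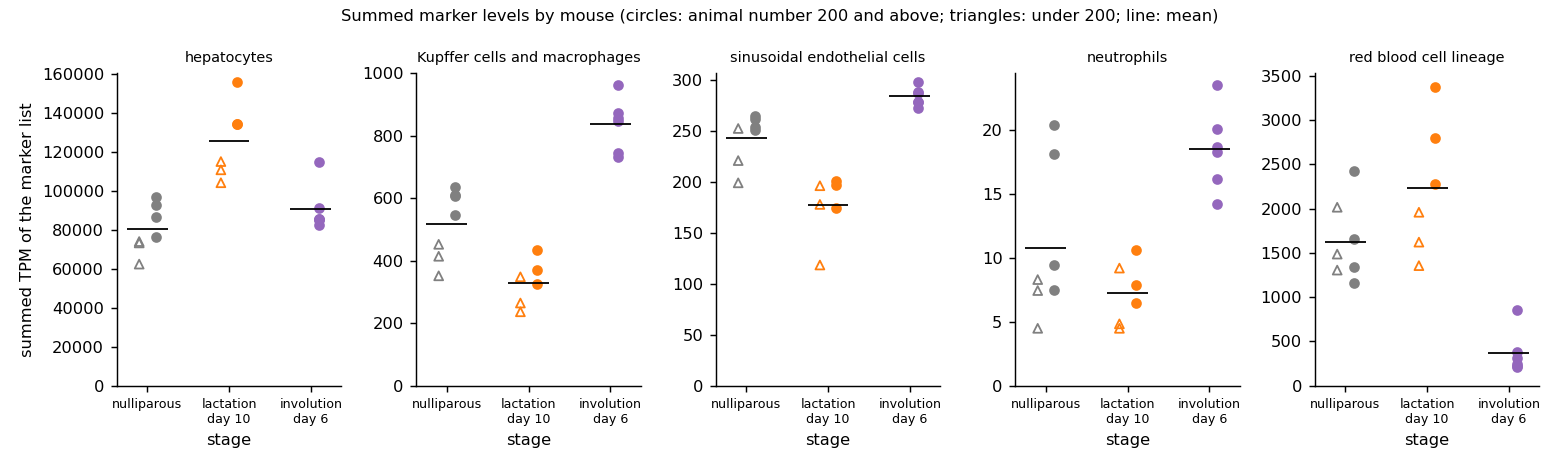
Summed TPM (linear axes from 0) of 5 marker lists in each mouse at the 3 stages, with circles for animal numbers of 200 and above, triangles for numbers under 200 and lines at group means. Kupffer and endothelial sums at involution lie above every lactating mouse, and red blood cell sums lie below, at 212 to 859 TPM against 1355 to 3371 TPM. The hepatocyte sum is mostly Alb.

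Of 44 extracellular matrix and stellate cell genes, 21 rose (47.7%, background 22.9%) and 1 fell, against 16 and 0 with the upper range alone and 10 and 2 under median-ratio scaling. Cygb, the stellate cell globin, measured 1.68, 2.10 and 2.89 TPM at lactation and 3.84, 4.38 and 5.20 TPM at involution (log2 change 0.79 ± 0.103 (SE), adjusted p = 1.34e-04). Postn, periostin, measured 2.52, 3.995 and 5.04 and 7.51, 8.72 and 9.88 TPM (log2 change 1.03 ± 0.137 (SE), adjusted p = 1.52e-04), and Tgfbi, a matrix protein induced by TGF-β, measured 6.39, 6.81 and 8.76 and 11.7, 13.6 and 19.9 TPM (log2 change 0.88 ± 0.122 (SE), adjusted p = 2.05e-04). None of the 3 overlapped. Tgfb1 itself rose by 0.75 ± 0.120 (adjusted p = 5.86e-04) and the fibrillar collagen gene Col3a1 by 0.77 ± 0.209 (adjusted p = 0.0157), or 1.10 ± 0.212 (adjusted p = 0.00573) against the upper range. Col1a1, the major fibrillar collagen, changed by 0.33 ± 0.160 (adjusted p = 0.141), at 0.5 to 1.65 TPM at lactation and 1.18 to 2.22 TPM at involution. Col15a1, a basement membrane collagen, changed by -0.63 ± 0.158 (adjusted p = 0.0103) and did not pass against the upper range (adjusted p = 0.154).

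Of 48 cell death and lysosome genes, 15 rose and 1 fell, not far from the background of 22.9% higher, against 11 and 0 with the upper range alone and 10 and 5 under median-ratio scaling. Their median log2 change was 0.16, close to the 0.13 of all genes. The members with the lowest adjusted p are genes that macrophages also express. Axl, a receptor for apoptotic cells, measured 3.99, 5.71 and 6.05 TPM at lactation and 11.5, 12.3 and 14.0 TPM at involution (log2 change 1.12 ± 0.0984 (SE), adjusted p = 1.37e-05). Ctss, the cathepsin that trims the invariant chain, measured 14.8, 19.1 and 27.0 and 43.8, 50.7 and 59.0 TPM (log2 change 1.33 ± 0.131 (SE), adjusted p = 2.02e-05), and Laptm5, a lysosomal protein of blood cells, measured 3.51, 4.13 and 6.20 and 9.62, 11.5 and 16.4 TPM (log2 change 1.27 ± 0.131 (SE), adjusted p = 2.54e-05). All 3 were higher in every involution mouse than in any lactating mouse. Ctsb, a general cathepsin, rose by 0.43 ± 0.0606 (adjusted p = 2.35e-04). The pore-forming Bax changed by 0.13 ± 0.102 (adjusted p = 0.356) and Lamp1, a lysosome membrane protein, by 0.15 ± 0.0777 (adjusted p = 0.177), neither of which passed. Bbc3, which encodes the BH3-only protein PUMA, was the member that fell (log2 change -0.69 ± 0.206 (SE), adjusted p = 0.0242), and it did not pass against the upper range (-0.61 ± 0.272 (adjusted p = 0.162)) or without lactating mouse LAC_102 (adjusted p = 0.0545).

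Among 28 iron and heme genes, 11 rose and 3 fell, against 6 and 2 with the upper range alone and 8 and 5 under median-ratio scaling. Hamp (chr7:30942368-30944032), hepcidin, the hormone that closes iron export, measured 589.7, 123 and 1524 TPM in the lower range of lactating mice, 1764, 3488 and 2219 TPM in the upper range and 7715, 8240 and 10778 TPM at involution. Every involution mouse exceeded every lactating mouse (log2 change 3.0 ± 0.621 (SE), adjusted p = 0.00327), and the change was 1.84 ± 0.191 (adjusted p = 2.38e-04) against the upper range. The nulliparous mean was 7303 TPM. Atoh8, a transcription factor of the BMP response, rose from 2.30, 5.42 and 8.35 TPM to 19.2, 20.4 and 22.6 TPM (log2 change 1.77 ± 0.197 (SE), adjusted p = 4.29e-05). Bmp2, a ligand of that pathway made by endothelial cells, rose from 1.77, 2.66 and 3.27 to 3.77, 4.74 and 5.51 TPM (log2 change 0.67 ± 0.112 (SE), adjusted p = 7.07e-04). Slc40a1, ferroportin, the iron exporter of macrophages and hepatocytes, rose from 37.3, 47.7 and 66.4 to 101.5, 111 and 126 TPM (log2 change 1.20 ± 0.124 (SE), adjusted p = 2.63e-05). Groups overlapped for none of these. Hmox1, heme oxygenase, rose by 0.63 ± 0.109 (adjusted p = 9.97e-04). Falls were seen for the transferrin receptor gene Tfrc (-0.69 ± 0.135, adjusted p = 0.00227), for Aco1, the iron-sensing aconitase (-0.47 ± 0.0601, adjusted p = 1.17e-04), and for Alas1, the first enzyme of heme synthesis (-0.98 ± 0.281, adjusted p = 0.0202). Alas1 did not pass against the upper range alone (-0.87 ± 0.275 (adjusted p = 0.0575)).

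Hemoglobin transcripts were lower at involution. All 6 tested markers of the red blood cell lineage fell, also against the upper range alone and under median-ratio scaling, and 4 of them did not overlap between groups. The summed level of the list was 1355 to 3371 TPM at lactation and 212 to 859 TPM at involution. The nulliparous sum was 1155 to 2424 TPM. Tfrc, also counted among the iron genes above, was 1 of the 6. It averaged 25.3 TPM at lactation, 15.3 TPM at involution and 9.22 TPM in nulliparous mice. Hba-a2, an alpha globin gene, measured 456, 686 and 1142 TPM at lactation and 66.5, 75.2 and 254 TPM at involution (log2 change -2.90 ± 0.312 (SE), adjusted p = 3.62e-05). Hba-a1 measured 225.7, 309 and 562 and 25.1, 35.7 and 104 TPM (log2 change -2.98 ± 0.308 (SE), adjusted p = 2.63e-05), and the beta globin gene Hbb-bt measured 46.4, 92.3 and 142 and 5.47, 7.71 and 31.0 TPM (log2 change -3.06 ± 0.383 (SE), adjusted p = 9.98e-05). The highest involution mouse, ID6_216, was below all lactating mice for each of these. Of the other genes of the list, Slc4a1 and Epb42 were at or below 0.11 TPM in all 12 mice, Klf1 was at 0.44 to 0.79 TPM, and Alas2 was at 5.98 to 8.96 TPM at lactation and 1.67 to 6.25 TPM at involution. Blood left in the frozen lobe was not measured, and its part in this difference was not tested.

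In the thyroid hormone axis, Dio1 had by far the largest change. Dio1 (chr4:107291465-107307169), the deiodinase that makes active thyroid hormone, measured 0.520, 0.580 and 0.660 TPM in the lower range of lactating mice, 6.84, 8.44 and 3.59 TPM in the upper range and 24.1, 36.2 and 54.6 TPM at involution. The mean was 11.3-fold higher at involution (log2 change 3.54 ± 0.459 (SE), adjusted p = 1.29e-04), and the change was 2.47 ± 0.274 (adjusted p = 3.48e-04) against the upper range, which itself lay above the lower range by a log2 change of 2.14 (adjusted p = 3.16e-04). The nulliparous mean was 56.6 TPM. The thyroid hormone transporter gene Slc16a10 rose by 0.70 ± 0.194 (adjusted p = 0.0169) and did not pass under median-ratio scaling (adjusted p = 0.0517). Of 12 tested members, 3 rose (25%, near the background of 22.9%) and 0 fell. The receptor genes did not pass, namely Thra (0.24 ± 0.103, adjusted p = 0.0927) and Thrb (0.05 ± 0.122, adjusted p = 0.803). With the upper range alone 3 rose and 0 fell, and under median-ratio scaling 2 rose and 1 fell.

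Of 21 genes of the growth hormone, prolactin and IGF axis, 9 rose and 1 fell, against 4 and 2 with the upper range alone and 3 and 1 under median-ratio scaling. Ghr, the growth hormone receptor, measured 172, 179 and 212 TPM at lactation and 262, 286 and 321 TPM at involution (log2 change 0.63 ± 0.0753 (SE), adjusted p = 6.99e-05), without overlap, and changed by 0.71 ± 0.0799 (adjusted p = 3.83e-04) against the upper range. Stat5a and Stat5b, which carry its signal and that of prolactin, rose by 0.53 ± 0.114 (adjusted p = 0.00414) and 0.55 ± 0.104 (adjusted p = 0.00170). The prolactin receptor gene Prlr rose by 0.36 ± 0.0939 (adjusted p = 0.0117) and did not pass against the upper range (0.27 ± 0.0916 (adjusted p = 0.0738)). Igf1, the hormone released in response, changed by 0.20 ± 0.0679 (adjusted p = 0.0438), or 0.13 ± 0.0803 (adjusted p = 0.306), a call that ended without any 1 of lactating mice LAC_36, LAC_102, LAC_133 and LAC_240 or involution mice ID6_201, ID6_209, ID6_216, ID6_218 and ID6_230 (adjusted p up to 0.0897). Socs2, a feedback inhibitor, changed by 0.40 ± 0.272 (adjusted p = 0.288). Onecut1, a liver transcription factor, was the member that fell, from 10.04, 11.97 and 19.4 TPM to 3.69, 4.98 and 8.81 TPM (log2 change -1.15 ± 0.195 (SE), adjusted p = 8.73e-04), without overlap.

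Cell cycle genes were at low levels, and those that passed were mostly lower at involution. Of 42 members, 33 reached the filter, 14 fell and 1 rose, and against the upper range alone 13 fell and 0 rose. Under median-ratio scaling 16 fell and 0 rose. Cdc20, an activator of the anaphase-promoting complex, measured 2.33, 9.15 and 12.2 TPM at lactation and 0.160, 0.735 and 0.810 TPM at involution (log2 change -2.38 ± 0.299 (SE), adjusted p = 1.03e-04). Ccnb1, a mitotic cyclin, measured 1.06, 3.04 and 4.34 and 0.05, 0.185 and 0.290 TPM (log2 change -1.57 ± 0.213 (SE), adjusted p = 1.79e-04), and Birc5, survivin, measured 1.80, 3.78 and 5.12 and 0.290, 0.545 and 1.19 TPM (log2 change -1.44 ± 0.196 (SE), adjusted p = 1.83e-04). All 6 involution mice were below all lactating mice for each. The involution medians of these 3 genes were under 1 TPM, so they reached the filter through the lactating mice. For genes this low the filter favoured falls, and the counts of this list carry that limit. Mki67, the proliferation marker, changed by -0.87 ± 0.194 (adjusted p = 0.00528) and by -1.20 ± 0.155 (adjusted p = 6.51e-04) against the upper range. Ccnd1, the cyclin of entry into the cycle, changed by -1.22 ± 0.296 (adjusted p = 0.00828) and Top2a, the topoisomerase of replication, by -0.78 ± 0.173 (adjusted p = 0.00505). The member that rose was Cdkn1a, an inhibitor of the cycle (log2 change 1.23 ± 0.374 (SE), adjusted p = 0.0259), and it did not pass against the upper range (0.47 ± 0.293 (adjusted p = 0.317)) or without any 1 of lactating mice LAC_36, LAC_102 and LAC_133 or involution mice ID6_209, ID6_216 and ID6_232 (adjusted p up to 0.0573).

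Genes of sugar metabolism included rises and falls. Of 35 members, 10 fell (28.6%, background 5.61%) and 4 rose (11.4%, background 22.9%), against 11 and 3 with the upper range alone and 11 and 2 under median-ratio scaling. The glycolytic genes Gapdh and Eno1 changed by -0.50 ± 0.0790 (adjusted p = 5.45e-04) and -0.46 ± 0.0897 (adjusted p = 0.00222). Ldha, lactate dehydrogenase, rose from 297, 401 and 441 TPM to 502, 615 and 666 TPM (log2 change 0.62 ± 0.111 (SE), adjusted p = 0.00132). Gcgr, the glucagon receptor, rose from 104, 106 and 132.7 to 141, 152 and 159.5 TPM (log2 change 0.44 ± 0.0677 (SE), adjusted p = 4.07e-04), and neither gene overlapped. G6pc, which releases free glucose, rose by 0.99 ± 0.273 (adjusted p = 0.0164), or 1.08 ± 0.290 (adjusted p = 0.0297) against the upper range, but did not pass under median-ratio scaling (adjusted p = 0.0504). Pck1, the gluconeogenic carboxykinase, changed by 0.62 ± 0.373 (adjusted p = 0.231).

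Amino acid genes fell in 10 and rose in 6 of 43 cases, against 7 and 6 with the upper range alone and 15 and 1 under median-ratio scaling. Bhmt, which remethylates homocysteine with betaine, measured 1646, 2017 and 2411 TPM at lactation and 428, 821 and 1101 TPM at involution (log2 change -1.45 ± 0.205 (SE), adjusted p = 2.35e-04). Cbs, which takes homocysteine into transsulfuration, measured 287, 387 and 476 and 549, 648 and 688 TPM (log2 change 0.73 ± 0.111 (SE), adjusted p = 3.96e-04). Bhmt was lower and Cbs higher in all 6 involution mice than in any lactating mouse. In the urea cycle, Asl, the lyase, fell from 405, 486 and 672 TPM to 217, 249.9 and 302 TPM (log2 change -1.04 ± 0.123 (SE), adjusted p = 6.70e-05) and Arg1, arginase, by -0.42 ± 0.0906 (adjusted p = 0.00437). Cps1 and Ass1, the entry synthetases, changed by -0.00 ± 0.101 (adjusted p = 0.998) and 0.02 ± 0.102 (adjusted p = 0.914). Kmo, of tryptophan breakdown, changed by -0.82 ± 0.109 (adjusted p = 1.50e-04), while Agxt, a glyoxylate transaminase, and Sds, serine dehydratase, rose by 0.44 ± 0.0913 (adjusted p = 0.00313) and 0.45 ± 0.114 (adjusted p = 0.0110), changes that did not pass under median-ratio scaling (adjusted p = 0.0823 and 0.139).

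Drug-metabolizing genes moved in both directions. Of 45 cytochrome P450 genes and partners, 12 fell and 5 rose, but against the upper range alone 6 fell and 6 rose, and under median-ratio scaling 15 fell and 2 rose. Cyp2b10, the textbook target of the receptor CAR, measured 137, 229 and 125 TPM in the lower range, 84.4, 79.7 and 73.2 TPM in the upper range and 23.9, 31.5 and 41.4 TPM at involution (log2 change -1.76 ± 0.245 (SE), adjusted p = 2.13e-04), and changed by -1.27 ± 0.154 (adjusted p = 5.05e-04) against the upper range. Cyp2f2, a periportal P450, changed by -0.60 ± 0.0772 (adjusted p = 1.23e-04), or -0.53 ± 0.0777 (adjusted p = 0.00131). Cyp3a11, the main PXR target, measured 2372, 1997 and 2459 TPM in the lower range, 556, 531 and 699 TPM in the upper range and 383, 475 and 587 TPM at involution. Its change of -1.29 ± 0.390 (adjusted p = 0.0261) did not pass against the upper range (-0.32 ± 0.140 (adjusted p = 0.158)) or without any 1 of lactating mice LAC_36, LAC_102 and LAC_133 or involution mouse ID6_230 (adjusted p up to 0.0598). Cyp1a2 changed by -0.82 ± 0.184 (adjusted p = 0.00550) and did not pass against the upper range either (-0.46 ± 0.160 (adjusted p = 0.0792)). Cyp2d9 rose by 0.46 ± 0.0924 (adjusted p = 0.00250). The receptor genes Nr1i3 (CAR) and Nr1i2 (PXR) changed by -0.09 ± 0.257 (adjusted p = 0.809) and 0.03 ± 0.113 (adjusted p = 0.862).

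Of 45 conjugation enzymes, 16 fell and 5 rose, against 10 and 8 with the upper range alone and 17 and 0 under median-ratio scaling. Gstm4 and Gstt3, glutathione transferases, measured 78.7, 87.4 and 101.8 and 144, 186 and 255 TPM at lactation and 39.9, 44.4 and 53.1 and 64.7, 78.3 and 83.2 TPM at involution. They changed by -0.94 ± 0.0864 (adjusted p = 1.50e-05) and -1.28 ± 0.138 (adjusted p = 3.62e-05), without overlap. Ugt1a5 and Ugt1a1, glucuronosyltransferases read from 1 locus with shared exons, moved apart. Ugt1a5 changed by -2.36 ± 0.223 (adjusted p = 1.72e-05) and Ugt1a1, which conjugates bilirubin, rose by 0.43 ± 0.116 (adjusted p = 0.0146), or 0.66 ± 0.0927 (adjusted p = 0.00100) against the upper range, but did not pass under median-ratio scaling (adjusted p = 0.150). The shared exons make this split uncertain. Sult1a1, a phenol sulfotransferase, changed by -0.71 ± 0.122 (adjusted p = 9.04e-04).

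Of 23 NRF2 antioxidant genes, 9 fell and 5 rose, against 6 and 3 with the upper range alone and 11 and 3 under median-ratio scaling. The glutathione peroxidases moved apart, since Gpx4, which reduces lipid peroxides, fell from 518, 540.4 and 599 TPM to 325, 381 and 394 TPM (log2 change -0.55 ± 0.0634 (SE), adjusted p = 5.37e-05) and Gpx1, the main cytosolic form, rose from 2318, 2465 and 2843 TPM to 3188, 3929 and 3968 TPM (log2 change 0.56 ± 0.0820 (SE), adjusted p = 3.13e-04). Neither overlapped between groups. Aox1, aldehyde oxidase, and Ephx1, epoxide hydrolase, changed by -0.72 ± 0.0734 (adjusted p = 2.54e-05) and -0.60 ± 0.0963 (adjusted p = 6.20e-04). The classical NRF2 targets Nqo1 and Gclc changed by -0.39 ± 0.141 (adjusted p = 0.0547) and 0.17 ± 0.126 (adjusted p = 0.345) and did not pass.

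General cell machinery changed little. Cytosolic ribosomal protein genes rose in 30 of 78 cases and 0 fell, but by small amounts such as 0.36 ± 0.0530 for Rpl22 and 0.27 ± 0.0483 for Rps23. Only 6 rose against the upper range alone, and 0 passed in either direction under median-ratio scaling. Of 76 respiratory chain and ATP synthase genes, 4 rose and 1 fell, and against the upper range alone 0 rose and 1 fell, while under median-ratio scaling 0 rose and 20 fell. Of 41 genes of protein folding in the endoplasmic reticulum, 6 rose and 1 fell, and against the upper range 0 passed, with 0 higher and 1 lower under median-ratio scaling. The chaperone gene Hspa5 measured 487, 466 and 435 TPM in the lower range of lactating mice, 877, 1196 and 925 TPM in the upper range and 537, 808 and 968 TPM at involution (log2 change 0.19 ± 0.250 (SE), adjusted p = 0.605). Of 16 clock genes tested, 4 rose (25%, near the background of 22.9%) and 0 fell, against 2 and 0 with the upper range alone and 2 and 2 under median-ratio scaling. Nfil3 and Cry1, both repressors, rose by 0.57 ± 0.104 (adjusted p = 0.00145) and 0.98 ± 0.234 (adjusted p = 0.00763). The call of Cry1 ended with the range of animal number as a term (adjusted p = 0.0827) and with all 19 mice in the fit (adjusted p = 0.068). Arntl, the activator BMAL1, rose by 0.46 ± 0.132 (adjusted p = 0.0204) and did not pass against the upper range (0.29 ± 0.107 (adjusted p = 0.0931)). Nr1d1, Dbp and Per1, which swing widely over the day, changed by -0.25 ± 0.411, -0.55 ± 0.321 and -0.04 ± 0.337 (adjusted p = 0.670, 0.216 and 0.942). The hour of collection is not in the labels.

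Several of the largest changes lay outside these lists. Among genes that did not overlap and were also called against the upper range alone, the 12 largest falls included Cyp17a1, the hydroxylase and lyase of steroid synthesis. It measured 219, 236 and 158 TPM in the lower range, 46.0, 72.3 and 43.3 TPM in the upper range and 6.27, 12.9 and 29.1 TPM at involution (log2 change -2.91 ± 0.470 (SE), adjusted p = 6.11e-04). Eif4ebp3, an inhibitor of cap-dependent translation, measured 31.6, 40.1 and 87.9 TPM at lactation and 4.20, 6.03 and 8.17 TPM at involution (log2 change -2.74 ± 0.227 (SE), adjusted p = 9.70e-06). Ly6d, a small membrane-anchored protein, measured 49.7, 34.8 and 46.1 TPM, then 13.7, 5.09 and 5.08 TPM, and 0.810, 1.73 and 2.26 TPM at involution (log2 change -2.89 ± 0.519 (SE), adjusted p = 0.00127). They changed against the upper range alone by -1.95, -2.35 and -1.68.

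The 12 largest rises included genes that were lowest in the lower range of lactating mice. Fam25c measured 10.1, 7.83 and 10.8 TPM there, 123, 85.2 and 98.5 TPM in the upper range and 209.8, 275 and 357 TPM at involution (log2 change 3.04 ± 0.647 (SE), adjusted p = 0.00393), or 1.40 ± 0.160 (adjusted p = 4.03e-04) against the upper range. Dnaic1, an axonemal dynein chain, measured 0.650, 0.800 and 0.870 TPM, 13.2, 10.1 and 12.4 TPM and 24.4, 35.2 and 40.4 TPM in the same order (log2 change 2.85 ± 0.564 (SE), adjusted p = 0.00240), or 1.42 ± 0.151 (adjusted p = 2.56e-04) against the upper range. Serpina11, a serpin, measured 60.3, 56.8 and 80.7, 205, 174 and 187 and 361, 467 and 519.7 TPM (log2 change 2.01 ± 0.310 (SE), adjusted p = 4.35e-04), or 1.25 ± 0.107 (adjusted p = 9.82e-05). For these 3 genes the upper range lay between the lower range and involution. Crybb3, a crystallin, was at or below 0.480 TPM in all lactating mice and at 0.780, 4.62 and 9.12 TPM at involution (log2 change 2.00 ± 0.315 (SE), adjusted p = 5.13e-04). It reached the filter only through the involution mice. H2-Ea-ps, a class II pseudogene, measured 3.02, 7.61 and 10.7 and 14.8, 30.8 and 44.2 TPM (log2 change 1.95 ± 0.273 (SE), adjusted p = 2.19e-04), and its reads can be shared with other class II genes.

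**Figure D5:**
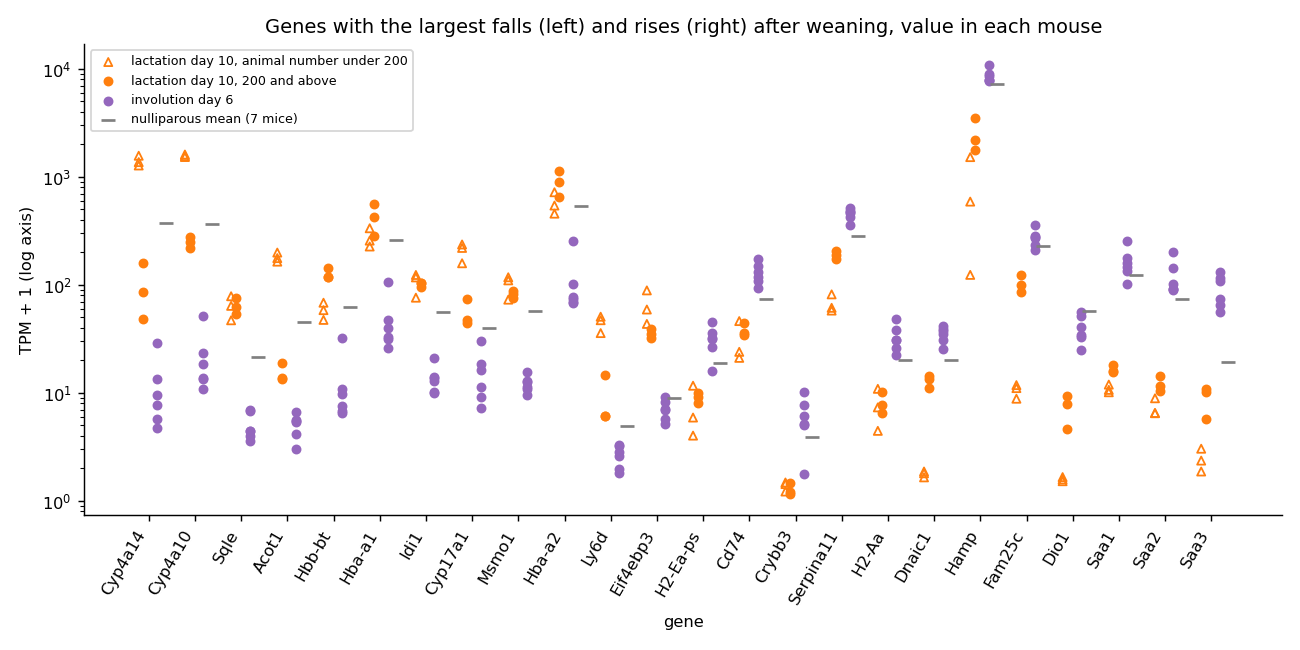
TPM + 1 (log axis) in each of the 12 mice for the 12 genes with the largest falls and the 12 with the largest rises at involution, with lactating mice numbered under 200 as open triangles, those numbered 200 and above as filled orange circles, involution mice in purple and the nulliparous mean as a grey dash. Cyp4a14, Acot1, Dnaic1 and Fam25c differ between the ranges of lactating mice, whereas Sqle, Idi1 and Msmo1 do not separate them.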

How the data were processed

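Liver RNA was analysed from 6 lactating mice (day 10) and 6 mice of involution day 6, with 7 nulliparous mice for orientation. Paired-end poly(A) libraries were aligned by the authors to GRCm38 and quantified by gene with RSEM (version 1.3.1, per the labels), and they deposited TPM for 51826 entries. TPM corrects for gene length and keeps no depth, and RSEM divides reads shared by paralogs. Columns of the 19 mice were matched to labels by title, and 0 of 171 pairs of mice had identical values.

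TPM were transformed to log2(TPM + 1), and 11579 genes averaging 1 TPM or more were fitted by limma-trend (limma 3.58.1, R 4.3.3) with 1 mean per group. The main fit used the 12 mice only and Benjamini-Hochberg adjustment over all genes tested. Calls required an adjusted p below 0.05 and a log2 change of 1 or more in size, and list members were counted at an adjusted p under 0.05 alone. The study's own test used counts and was not repeated on TPM. The fit was tested on simulated data, and of 200 genes shifted by 1.5 (log2) among 11579 it called 192, with 3 others. For whole-sample values two-sided exact permutation tests were used over the 924 splits of 12 mice (scipy 1.17.1). Gene positions are from GENCODE M21 (GRCm38), matched by symbol for 11326 genes tested, and promoters from RefSeq (GRCm38.p6).

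Named genes were the 12 largest rises and falls among called genes without overlap that were also called against lactating mice numbered 200 and above, the key genes of 24 function lists, and up to 3 members of each list in each direction with the lowest adjusted p. Entries without an official symbol were skipped in the first part. The members, lists and 11 marker lists were chosen with earlier results of these data known. Alternatives were other pseudocounts (0.1 and 0.5), no filter or one of 0.1 TPM, all 19 mice in the fit, median-ratio scaling, quantile normalization, robust moderation, an exact permutation test for single genes, the range of animal number as a term, either range of lactating mice alone, and each mouse left out. The upper range with median-ratio scaling was added after seeing the data. With the range as a term, the lower range had its own mean and involution was compared with the upper range. Its log2 changes therefore equal those of the upper range alone by construction, and only the estimate of the spread differs. Replicates share no number between groups, so no block was fitted. Measurements of other kinds or species in the study were not analysed here. Some members that the rule for named genes takes are not reported here, but they stay in the counts and medians of their lists.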

Additional observations from a re-analysis of the deposited data

Results flagged for a closer look

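Among 48 groups of 6 mice looked at for the 24 genes with the largest changes, 6 held a mouse far from the others by Dixon's criterion (a gap to the nearest mouse that takes most of the group's range). Chance flags about 1 group in 20, and genes of 1 family are not independent. Involution mouse ID6_216 had the highest hemoglobin transcripts, with 104 TPM of Hba-a1 (next 46.8), 254 TPM of Hba-a2 (next 100.2) and 31.0 TPM of Hbb-bt (next 9.75). These values remained below every lactating mouse. Involution mouse ID6_232 had the highest omega-hydroxylase levels, with 50.2 TPM of Cyp4a10 (next 22.5) and 27.7 TPM of Cyp4a14 (next 12.6), also below every lactating mouse. Involution mouse ID6_230 had 20.1 TPM of Idi1 (next 13.01), against at least 75.1 TPM in lactating mice. The causes were not tested.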

How the results depend on the processing

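Of 203 named genes, 157 passed an adjusted p of 0.05, 89 of these under every alternative and 68 not under at least 1, and of the 46 others 21 passed under at least 1. Calls at the log2 limit were 114 higher against lactating mice numbered 200 and above and also with the range as a term, 115 under median-ratio scaling, 72 with both the upper range and that scaling, 363 with a pseudocount of 0.1, and 329 higher and 305 lower against mice numbered under 200. Without the limit on size, counts higher were 1391 with the upper range, 1488 with the range as a term, 1091 with median-ratio scaling, 1413 with quantile normalization and 677 with the upper range and median-ratio scaling, and counts lower were 1317 with median-ratio scaling, 1140 with quantile normalization and 1121 against the lower range. Leaving out 1 mouse gave 143 to 202 higher and 127 to 182 lower.

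List medians are given here less the median of all genes tested. With the upper range, or the range as a term, fatty acid oxidation moved from -0.51 to -0.17, bile acids from -0.16 to 0.0094 (a reversed direction), the growth hormone axis from 0.12 to 0.042, cytochrome P450 from -0.25 to -0.0086, NRF2 genes from -0.35 to -0.23 and protein folding from 0.09 to -0.11. With the upper range and median-ratio scaling these were -0.19, -0.0036, 0.024, -0.028, -0.24 and -0.12, and NRF2 genes were at -0.24 with quantile normalization. Against the lower range, fatty acid oxidation was at -0.81, lipoproteins at -0.030, bile acids at -0.35, coagulation and complement at 0.38, plasma carriers at -0.080, the growth hormone axis at 0.21, glucose at -0.11, amino acids at -0.32, cytochrome P450 at -0.54, conjugation at -0.50, protein folding at 0.27 and antigen presentation at 0.74. Lipoproteins ranged from -0.17 to -0.049 when 1 mouse was left out, the latter without lactating mouse LAC_213. With the upper range and median-ratio scaling, F2, Igf1, Rps6 and Ttr turned to -0.015, -0.013, -0.043 and -0.020, and Lpl turned to 0.48 against the lower range. The rises of Hp, Plg, H2-K1, Hmox1, Ldha, Ctsb, Ambp, Dgat2, Nfil3, Apoe, Cyp2d9 and Cry1 did not pass with the upper range and median-ratio scaling together. Each of these passed under either change alone. Under median-ratio scaling C3, Ttr, Prlr, Igf1, Cdkn1a, Arntl and G6pc no longer passed (adjusted p 0.0504 to 0.824), nor did Tfrc, Sds and Cyp2d9 with all 19 mice (0.0547 to 0.0955), Alb and Gpx1 with quantile normalization (0.319 and 0.0666) or Alb and Apoe without a filter (0.292 and 0.0681). The cause of the difference between ranges was not tested. Depth is unknown from TPM, so low genes have no counting interval. The groups share no replicate numbers. No paired analysis was possible because the groups compared share fewer than 2 numbers.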

Other observations

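Some genes outside the lists also differed, chosen here after their values were seen and therefore given without a test. Retsat, a retinol saturase, was at 337 ± 197 TPM (SD, n = 6) at lactation and 78.6 ± 21.8 TPM at involution, Rdh11, a retinol dehydrogenase, at 71.5 ± 14.2 and 24.4 ± 5.20 TPM, and Aldh1a1, which makes retinoic acid, at 669.8 ± 407 and 129 ± 12.97 TPM. Their log2 changes were -1.89, -1.51 and -2.10, and -1.04, -1.73 and -1.21 against lactating mice numbered 200 and above. Pltp, the phospholipid transfer protein, was at 35.2 to 76.7 TPM at lactation and 17.8 to 24.1 TPM at involution. Lect2, a secreted chemotaxin, was at 71.7 to 155 TPM at lactation and 273 to 426 TPM at involution, and Rarres2, chemerin, at 375 to 502 and 672 to 1135 TPM.

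Another set of genes, also chosen after their values were seen, differed from all lactating mice but little from those of the upper range. Hsd3b5 changed by a log2 of 3.09 against all and 0.29 against the upper range, S100g by 2.15 and 0.48, Mup3, a major urinary protein, by 1.57 and 0.43, Slco1a1, an organic anion transporter, by -1.94 and -0.26, and Egr1, an immediate early gene, by -2.57 and -0.38. All 6 involution mice are of the upper range, so in the comparison with the lower range alone stage and range cannot be told apart.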
